A study of Mus musculus with 10 samples.

Results

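The interferon response and STING genes are 40 listed genes that sense nucleic acid, carry the interferon signal or are induced by it. Of these, 38 were paired with an array probe through the RefSeq accession of the probe, out of 19096 genes with a paired probe on the array, and all 38 passed the filter on dim probes, as did 15586 genes in all. The antiviral GTPases Mx1 and Mx2 were not paired through these accessions and are not analysed here. Where a gene had several probes, the probe with the highest mean over the 10 arrays stood for it, and no difference between the groups entered the choice. By role the list holds 8 nucleic acid sensors and STING axis genes, 8 receptor and signalling genes, 14 antiviral effectors, 5 GTPases inducible by interferon-gamma and 5 other induced genes.

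Interferons are secreted proteins that put cells into an antiviral state. DNA in the cytosol is sensed by cGAS (Mb21d1), whose product cyclic GMP-AMP activates STING (Tmem173), while the helicases RIG-I (Ddx58) and MDA5 (Ifih1) sense RNA. Both routes activate the transcription factors IRF3 and IRF7, which switch on the type I interferon genes. Type I interferons signal through the receptor IFNAR to a complex that holds STAT2 and IRF9 and binds the interferon-stimulated response element (ISRE), and interferon-gamma signals through IFNGR to the gamma-activated site (GAS).

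The study compared whole lungs of wild type mice (Lkb1f/f, WT, n = 5) with whole lung squamous cell carcinomas (SCC, n = 5) of CCSPiCreLkb1f/f mice, all labelled strain B6.129 and 13 months of age, with no treatment in either group. CCSP is the secretory protein of airway club cells, and its promoter drives the Cre recombinase that deletes the floxed Lkb1 (Stk11) gene. No probe was paired with Lkb1 (Stk11) itself through a RefSeq accession, so its loss was not checked here. RNA of each sample was labelled with Cy3 and hybridised to 1 one-colour Agilent array, and all values below are log2 intensities after quantile normalization. The labels do not say that each array was a separate animal, so p-values measure the spread between these arrays.

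The arrays did not all sit with their group. WT 1 to 4 shared a slide, as did SCC 4 and 5. The remaining arrays, WT 5 with SCC 1, SCC 2 and SCC 3, made up slide 2, the only slide of both groups. On 9 arrays 71.0% to 74.3% of all probes were well above background, and on SCC 5 90.2% were. SCC 2 correlated with the WT arrays at r = 0.94 to 0.946 over tested probes, and the other SCC arrays at 0.85 to 0.905. The squamous markers Krt5, Krt14 and Trp63 were called higher in SCC, and Krt5 was at 5.29 to 6.63 in WT, at 15.60 on SCC 2 and at 17.45 to 17.70 on the other SCC arrays. Dsg3 was not well above background on any WT array and was at least 44.5-fold higher in SCC. In the interferon members, SCC 2 was the lowest SCC array for 31 of 38 (81.6%, against 30.6% of all tested genes), and WT 5 was the highest WT array for 27 of 38 (71.1%, against 22.6%). Some values below are therefore also given without SCC 2 or WT 5.

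Promoters of the called members are shown first, since the family is known for the ISRE, and the members with a match are printed. In RefSeq, 30 of the 38 members had an entry (GRCm38.p6), and the 250 bases before the annotated start were searched on both strands for the ISRE core GAAANNGAA and the GAS core TTCNNNGAA. For the 4 members with 2 annotated starts, Ifit2 among them, the first in the table was used, and the second held neither core in any of them. Capitals mark the matches, lower case all other bases. Isg15 lies at chr4:156200819-156201068 (minus strand), Oas1a at chr5:120907526-120907775 (minus strand), Oas3 at chr5:120777660-120777909 (minus strand) and Ifit2 at chr19:34550444-34550693 (plus strand).
Isg15: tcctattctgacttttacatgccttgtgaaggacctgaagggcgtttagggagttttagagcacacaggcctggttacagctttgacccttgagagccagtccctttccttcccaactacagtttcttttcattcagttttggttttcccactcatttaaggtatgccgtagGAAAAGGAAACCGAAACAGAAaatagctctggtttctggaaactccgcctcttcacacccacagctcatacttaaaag
Oas1a: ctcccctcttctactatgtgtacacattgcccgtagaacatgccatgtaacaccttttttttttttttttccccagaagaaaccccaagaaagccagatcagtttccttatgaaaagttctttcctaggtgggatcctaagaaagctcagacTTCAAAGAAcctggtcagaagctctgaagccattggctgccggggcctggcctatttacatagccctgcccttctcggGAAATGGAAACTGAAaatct
Oas3: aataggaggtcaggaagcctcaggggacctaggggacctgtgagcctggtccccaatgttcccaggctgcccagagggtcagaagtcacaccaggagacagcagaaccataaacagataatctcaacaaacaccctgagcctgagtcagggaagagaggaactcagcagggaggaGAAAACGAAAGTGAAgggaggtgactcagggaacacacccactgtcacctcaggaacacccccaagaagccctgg
Ifit2: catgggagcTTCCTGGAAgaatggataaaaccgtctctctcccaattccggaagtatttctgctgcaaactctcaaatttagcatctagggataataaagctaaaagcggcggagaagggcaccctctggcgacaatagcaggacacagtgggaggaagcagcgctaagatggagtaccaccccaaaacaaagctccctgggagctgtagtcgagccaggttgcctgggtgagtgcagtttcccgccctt
Isg15 held 3 overlapping ISRE cores between 78 and 58 bases before the start, Oas3 2 between 75 and 61 bases, and Oas1a 2 between 20 and 6 bases, beside a GAS core. Ifit2 held a GAS core 241 bases before its start and no ISRE core. In Oasl1 and Irf7, which changed most, neither string of letters was found in this window. Over all 27018 genes with a promoter, 7.2% held the ISRE core and 7.2% the GAS core. Among the members, 15 of 30 held the ISRE core, made up of 3 of 5 called higher, 0 of 2 called lower and 12 of 23 not called. The GAS core was found in 5 of 30. A match is a run of letters and not a measured binding site.

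Interferon genes moved in both directions in SCC across the plot of differences by role. A gene was called when limma's adjusted p was below 0.05 and the change at least 2-fold, and 9 of 38 members were, 7 higher and 2 lower. Called higher were Oasl1, Irf7, Isg15, Oas1a, Oas3, Oas2 and Tmem173, and called lower were Ifit2 and Cmpk2. Over all 15586 tested genes 24.9% were called (11.6% higher and 13.4% lower), so 9 of 38 was near the background and is no result about the members as a group. The same held for the adjusted p alone, which 18 members passed (10 higher, 8 lower) against 53.9% of all genes. The WT and SCC ranges did not overlap for 14 members (6 higher, 8 lower), against 41.4% of all genes. The median difference of the members, SCC minus WT, was -0.05 on the log2 scale and that of all tested genes -0.04, while single members ranged from -1.20 to 4.68. Without SCC 2 the members called higher rose to 11, with Zbp1, Socs1, Ifit1 and Rsad2 added, and those called lower stayed at 2, while of all tested genes 13.1% were called higher and 15.0% lower. With slide as a fixed block, a fit that compares SCC 1 to 3 with WT 5 only, 2 members were called higher and 10 lower, against 5.24% and 6.43% of all tested genes. That fit takes its spread from the arrays within each slide and assumes that WT 5, alone on its side, varies like the others.

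**Figure D1:**
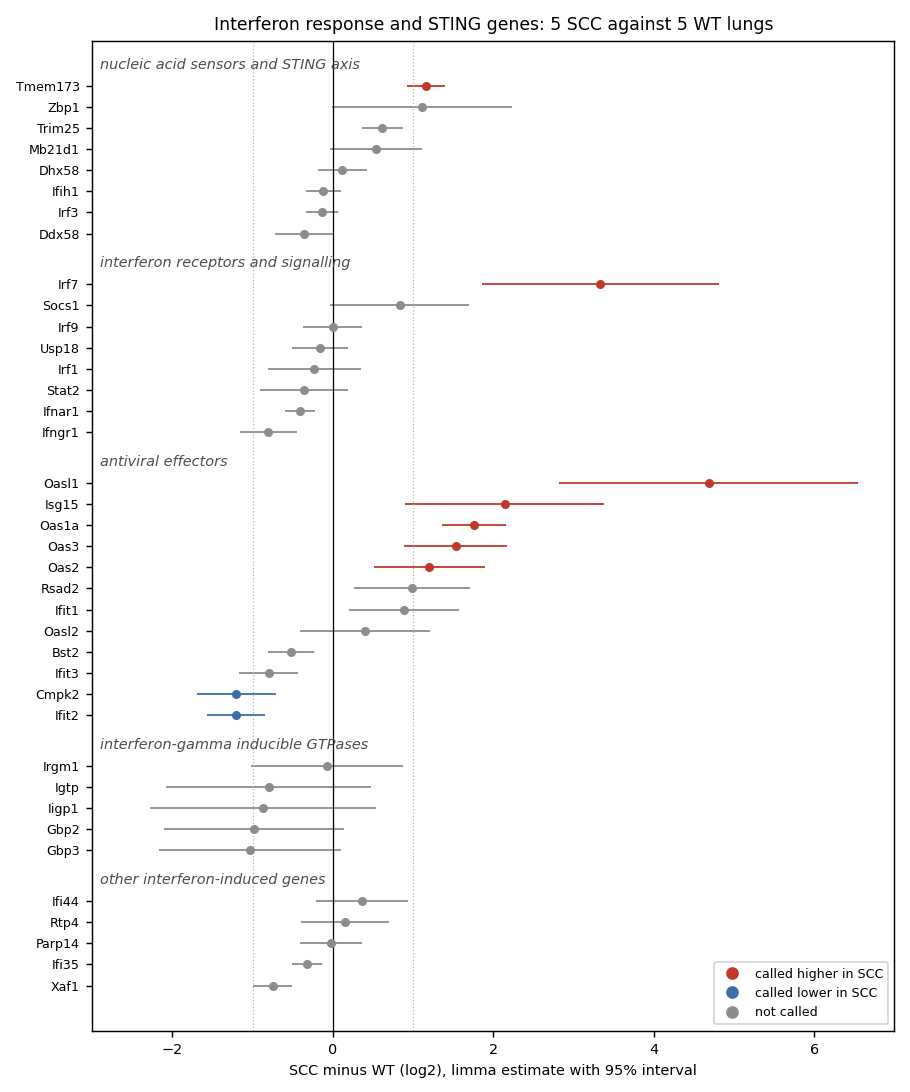
Difference between SCC and WT for the 38 members in log2 units (x axis), grouped by role (y axis). Points are limma estimates over 5 SCC and 5 WT arrays, bars their 95% intervals, dotted lines mark 2-fold, and colour marks the 7 members called higher and the 2 called lower. The largest differences lie among antiviral effectors and at Irf7, and the bars of the 5 interferon-gamma inducible GTPases all cross 0.

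In the STING axis, Tmem173, the adaptor STING itself, was higher in every SCC. Its log2 intensities were 11.19, 11.31, 11.12, 11.55 and 11.33 in WT 1 to 5 and 12.56, 12.35, 12.57, 12.28 and 12.53 in SCC 1 to 5. All SCC arrays lay above all WT arrays, SCC 2 with the rest. The difference was 1.16 (SE 0.11, 2.23-fold, limma adjusted p = 3.15e-05), and an exact permutation of the array labels (two-sided) gave p = 0.00794, the smallest possible here. On slide 2 alone the difference was 1.16 as well (adjusted p = 0.0163 with the slide block). It was the only sensor or STING axis gene called of the 8.

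Mb21d1, the DNA sensor cGAS that feeds STING, did not pass. It was at 9.03, 8.86, 8.70, 8.90 and 9.10 in WT 1 to 5 and at 9.76, 8.45, 9.81, 9.84 and 9.40 in SCC 1 to 5. SCC 1, 3, 4 and 5 exceeded every WT array, while SCC 2 lay below all of them. The difference was 0.54 (SE 0.25, adjusted p = 0.105), and without SCC 2 it was 0.79 (adjusted p = 0.00051). A second, dimmer Mb21d1 probe gave 0.41 (adjusted p = 0.508) and also 0.41 without SCC 2. On that probe SCC 5 (3.04) lay below every WT array. Irf3, the transcription factor that STING activates, was at 13.85, 13.71, 13.71, 13.77 and 13.87 in WT and at 13.69, 13.71, 13.55, 13.81 and 13.47 in SCC, overlapping ranges with a difference of -0.13 (95% interval -0.34 to 0.07, adjusted p = 0.243).

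The RNA sensors did not pass on their brightest probe. Ddx58, or RIG-I, differed by -0.36 (95% interval -0.72 to 0.01), Ifih1, or MDA5, by -0.12 (-0.34 to 0.10) and Dhx58, the related helicase LGP2, by 0.12 (-0.19 to 0.43). Second probes gave -0.55 for Ifih1 (adjusted p = 0.0175) and -0.89 for Irf3 (adjusted p = 0.000973), and the 3 other Ddx58 probes -0.92 (adjusted p = 0.000706), 0.04 and -0.70 (adjusted p = 0.875 and 0.259). On the second Ifih1 probe and the first of these Ddx58 probes every SCC array lay below every WT array, so the result depended on the probe. Trim25, the ubiquitin ligase that acts on RIG-I, was higher in all 5 SCC by 0.62 (SE 0.11, adjusted p = 0.00167), below 2-fold, and did not pass with the slide block (0.52, adjusted p = 0.142). A second Trim25 probe gave 2.56 (adjusted p = 0.00757), with SCC 2 (9.13) below every WT array, and 3.23 without SCC 2. Over the mean of both probes Trim25 was called higher. Zbp1, a sensor of Z-form nucleic acid, was at 9.93, 9.87, 9.31, 10.06 and 11.59 in WT and at 11.60, 9.71, 11.82, 11.42 and 11.79 in SCC. Here WT 5 reached the level of 4 SCC arrays and SCC 2 that of 4 WT arrays. The difference was 1.11 (SE 0.50, adjusted p = 0.091), it passed without WT 5 (1.47, adjusted p = 0.0229) or without SCC 2 (1.50, adjusted p = 0.0108), and on slide 2 alone it was -0.55.

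Irf7, the interferon-induced factor that amplifies type I interferon production, rose 10.1-fold and was the 1 called gene among 8 receptor and signalling genes. It was at 7.28, 7.49, 7.57, 7.22 and 7.75 in WT 1 to 5 and at 11.33, 7.99, 11.88, 11.01 and 11.79 in SCC 1 to 5. The groups did not overlap, but SCC 2 lay close to the highest WT array and far below the nearest SCC. The difference was 3.34 (SE 0.66, adjusted p = 0.00244), 4.04 without SCC 2 and 2.72 under normexp, another background correction (6.57-fold). On slide 2 alone it was 2.65, with an adjusted p of 0.203 under the slide block.

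The receptor chains on the list, Ifnar1 and Ifngr1, were lower. Ifnar1, a chain of the type I receptor, was at 12.53, 12.28, 12.38, 12.34 and 12.29 in WT and at 11.91, 12.02, 11.97, 12.01 and 11.83 in SCC. Ifngr1, the ligand-binding chain for interferon-gamma, was at 15.26, 15.34, 15.45, 15.48 and 15.45 in WT and at 14.90, 14.02, 14.75, 14.76 and 14.53 in SCC. In both genes every SCC array lay below every WT array. The differences were -0.41 (SE 0.08, adjusted p = 0.00263) and -0.81 (SE 0.16, adjusted p = 0.00235), below 2-fold, and with the slide block their adjusted p were 0.229 and 0.107. Their partner chains, which are no members and were looked up after these values were seen, did not follow. Ifngr2 was at 12.25 to 12.50 in WT and at 13.19, 12.60, 13.57, 13.19 and 13.44 in SCC, higher by 0.80 (SE 0.17, adjusted p = 0.00356), and Ifnar2 differed by -0.10 (95% interval -0.31 to 0.10).

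The factors that carry the receptor signal did not pass over the 10 arrays. Stat2 was at 10.92, 10.83, 10.86, 10.91 and 11.95 in WT and at 11.09, 10.22, 10.72, 10.71 and 10.97 in SCC (difference -0.35, 95% interval -0.90 to 0.19, adjusted p = 0.253). Irf9 was at 11.58, 11.55, 11.43, 11.58 and 12.16 in WT and at 11.72, 11.25, 11.71, 11.85 and 11.75 in SCC (95% interval of the difference -0.37 to 0.36). In both, WT 5 was the highest and SCC 2 the lowest of the 10 arrays. Without WT 5 the Stat2 difference was -0.14, and with the slide block, against WT 5 only, Stat2 was called lower (-1.28, adjusted p = 0.0327). Irf1, a factor that interferon-gamma induces, followed the same pattern, with 14.70 to 15.00 in WT 1 to 4, 15.81 in WT 5, 14.05 in SCC 2 and 14.84 to 15.07 in the other SCC. Its difference was -0.23 and without WT 5 -0.04. The direction of the Irf9 difference turned with WT 5 or SCC 2 left out (0.12 and 0.10). Of the feedback inhibitors, Socs1 differed by 0.83 (adjusted p = 0.1) and by 1.14 without SCC 2 (adjusted p = 0.0116), and Usp18, which removes ISG15 from proteins, by -0.16 (95% interval -0.50 to 0.18).

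The antiviral effectors held most of the calls, 5 higher and 2 lower of 12 with a probe (41.7% and 16.7%, against 11.6% and 13.4% of all tested genes), and another 4 passed the adjusted p below 2-fold. Oasl1, an OAS-like protein known to restrain Irf7 translation, showed the largest change of all members, 25.7-fold. It was at 6.80, 6.95, 6.96, 7.05 and 6.90 in WT and at 12.14, 7.96, 12.65, 12.83 and 12.49 in SCC. As with Irf7, 4 SCC arrays stood far above WT and SCC 2 just above. The difference was 4.68 (SE 0.83, adjusted p = 0.00135), 5.60 without SCC 2, 3.89 under normexp (14.8-fold) and 4.02 on slide 2 alone (adjusted p = 0.121 with the slide block).

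Isg15, an interferon-induced ubiquitin-like protein that is conjugated to other proteins, was at 9.46, 9.15, 9.29, 9.30 and 9.41 in WT and at 11.94, 9.12, 12.48, 11.53 and 12.26 in SCC. SCC 2 fell below every WT array, so the groups overlapped. The difference was 2.14 (SE 0.56, 4.41-fold, adjusted p = 0.0101; exact permutation p = 0.0476), 2.73 without SCC 2 and 1.77 on slide 2 alone (adjusted p = 0.314 with the slide block). Its promoter held the 3 ISRE cores printed above.

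The oligoadenylate synthetases, which activate RNase L against viral RNA, were called higher in all 3 members. Oas1a was at 9.97, 9.87, 9.79, 9.94 and 10.22 in WT and at 11.90, 11.06, 11.75, 11.92 and 11.95 in SCC, with no overlap and SCC 2 lowest of the SCC. Its difference was 1.76 (SE 0.18, 3.39-fold, adjusted p = 4.96e-05), and it stayed called with the slide block (1.35, adjusted p = 0.0275). Oas3 was at 5.37, 5.31, 5.50, 5.65 and 5.52 in WT and at 7.27, 6.38, 7.82, 7.31 and 6.21 in SCC. Here SCC 5 was the lowest SCC array, still above every WT array. The Oas3 difference was 1.53 (SE 0.29, adjusted p = 0.00182), a second probe gave 2.66, and it was 1.64 on slide 2 alone (adjusted p = 0.094 with the slide block). Oas2 was at 9.61, 8.90, 9.09, 9.25 and 9.81 in WT and at 10.76, 9.46, 10.70, 11.21 and 10.52 in SCC, with SCC 2 inside the WT range. The Oas2 difference was 1.20 (SE 0.31, 2.30-fold, adjusted p = 0.00978) and 0.50 on slide 2 alone (adjusted p = 0.578 with the slide block). Under normexp background correction the Oas3 change was 1.63-fold, below the threshold for a call.

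**Figure D2:**
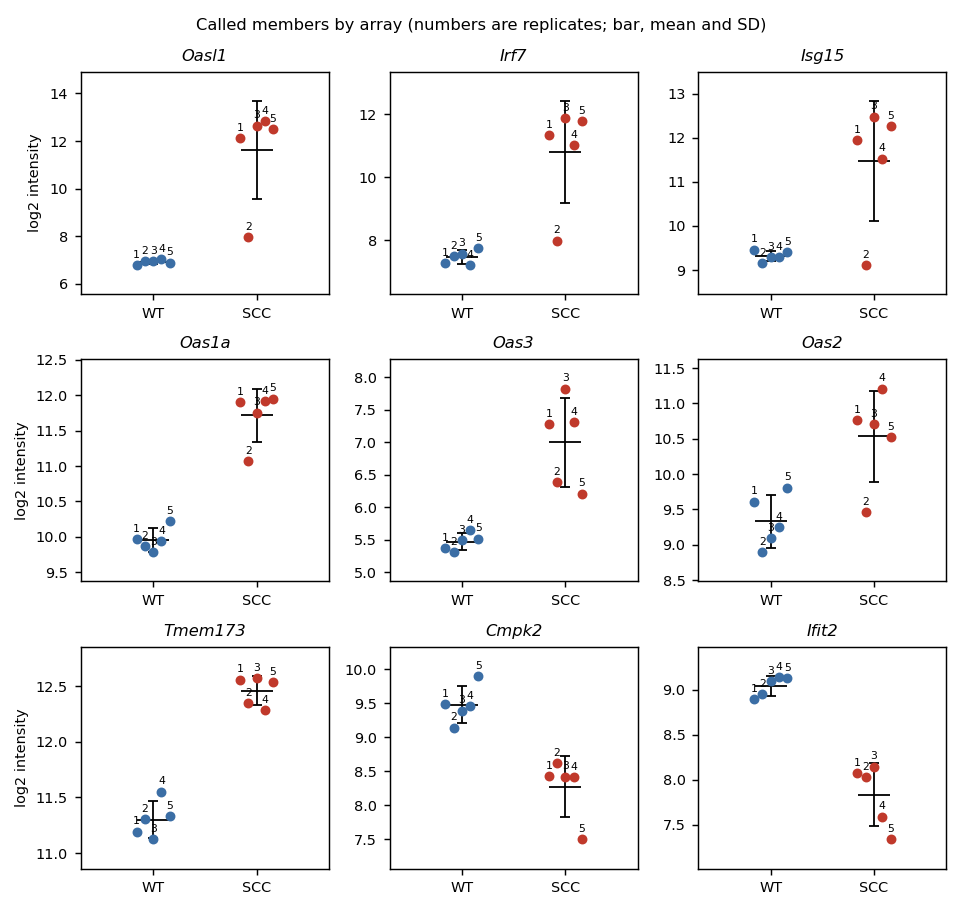
Log2 intensity (y axis) of the 9 called members in the 5 WT (blue) and 5 SCC (red) arrays, 1 panel a gene, with replicate numbers beside the points and the mean and SD as a bar. SCC 2 sits apart from the other SCC arrays in the panels of Oasl1, Irf7 and Isg15 and with them in those of Tmem173 and Ifit2.

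Ifit1 and Rsad2 passed the adjusted p below 2-fold. Ifit1, which binds foreign RNA ends, was at 10.13, 9.76, 9.95, 9.98 and 10.51 in WT and at 11.24, 9.85, 11.53, 10.72 and 11.40 in SCC (0.88, SE 0.31, adjusted p = 0.037), and without SCC 2 it was called at 2.23-fold. It no longer passed in 8 of the 10 sets with an array left out (adjusted p up to 0.0849) or with the slide block (adjusted p = 0.724). Rsad2, or viperin, was at 8.41, 8.33, 8.58, 8.83 and 8.18 in WT and at 9.75, 8.46, 10.21, 8.90 and 9.94 in SCC (0.98, SE 0.32, adjusted p = 0.0289), 1.98-fold and so just under the threshold, and it no longer passed in 7 of the 10 sets (adjusted p up to 0.0657) or with the slide block (adjusted p = 0.22). Without SCC 2 Rsad2 was called at 2.35-fold (adjusted p = 0.00303), and it was also called without WT 4, without SCC 4, with the 75th percentile and in the deposited series matrix. Ifit1 and the brightest Rsad2 probe were above the WT range on SCC 1, 3, 4 and 5 and within it on SCC 2. The other Rsad2 probes gave 0.47 (adjusted p = 0.272) and 0.85 (adjusted p = 0.0282). Oasl2 had no value on WT 1, where its spot was marked as an outlier, and over the other 9 arrays it did not pass (0.40, 95% interval -0.41 to 1.22).

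Other effectors were lower, and in these SCC 2 went with the rest of the SCC. Ifit2, from the same gene family as Ifit1 and known to bind RNA and hold back translation, was at 8.90, 8.95, 9.09, 9.14 and 9.13 in WT and at 8.07, 8.03, 8.15, 7.59 and 7.34 in SCC. The difference was -1.20 (SE 0.16, 2.30-fold lower, adjusted p = 0.000262), and a second Ifit2 probe gave -1.21. Cmpk2, a mitochondrial nucleotide kinase whose gene neighbours Rsad2, was at 9.49, 9.14, 9.39, 9.46 and 9.90 in WT and at 8.42, 8.62, 8.42, 8.42 and 7.50 in SCC, lowest on SCC 5. The Cmpk2 difference was -1.20 (SE 0.22, adjusted p = 0.00157). A second Cmpk2 probe was well above background on all 5 WT arrays and on none of the SCC, at least 2.21-fold lower, and it was tested only because it passed the filter on dim probes in WT. Both genes stayed called lower on slide 2 (-1.04 and -1.41) and fell to 1.81-fold and 1.86-fold under normexp.

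Ifit3 was at 12.71, 12.98, 12.86, 13.43 and 13.34 in WT and at 12.21, 11.93, 12.43, 12.43 and 12.32 in SCC (-0.80, SE 0.16, adjusted p = 0.00297). With the slide block Ifit3 was called lower (-1.14, adjusted p = 0.0457). Bst2, the tetherin that holds virus particles at the cell surface, differed by -0.52 (adjusted p = 0.00788). In both genes every SCC array lay below every WT array. The promoters of Ifit1 and Ifit3 each held 3 ISRE cores.

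The 5 GTPases inducible by interferon-gamma, which act on the membranes around intracellular pathogens, showed their highest level in a WT lung. Iigp1 was at 12.05, 11.89, 11.48, 12.68 and 15.27 in WT 1 to 5 and at 12.15, 11.39, 12.01, 11.53 and 11.91 in SCC 1 to 5. Igtp was at 12.88, 12.78, 12.44, 13.49 and 15.77 in WT and at 12.94, 12.06, 13.04, 12.37 and 12.92 in SCC. In both, WT 5 was more than 2 log2 units above every other array, and the other 9 arrays overlapped. Gbp2 was at 13.03, 12.75, 12.36, 13.21 and 14.92 in WT and at 12.58, 11.42, 13.02, 11.55 and 12.82 in SCC. Gbp3 was at 12.04, 11.72, 11.36, 12.32 and 14.36 in WT and at 11.65, 10.60, 11.47, 11.40 and 11.50 in SCC. Irgm1 was at 11.85, 11.68, 11.47, 12.07 and 13.93 in WT and at 12.25, 11.85, 12.40, 11.77 and 12.37 in SCC. All 5 genes put WT 5 first of the 10 arrays.

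None of the 5 GTPases passed over all 10 arrays, where their differences ran from -1.04 (Gbp3, adjusted p = 0.116) to -0.07 (Irgm1, adjusted p = 0.899), with a median of -0.87. Without WT 5 the median was -0.23 and Irgm1 turned to 0.36 (adjusted p = 0.142), and again none passed. With the slide block, where the WT side is WT 5 alone, all 5 were called lower (6.43% of all tested genes were), from -3.42 for Iigp1 (adjusted p = 0.00701) to -1.77 for Irgm1 (adjusted p = 0.0168). Over the 5 genes WT 5 stood at a median of 2.00 above the WT mean. Ifng, the gene of interferon-gamma itself, was at 7.64 on WT 5, within the WT range of 6.75 to 7.73.

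**Figure D3:**
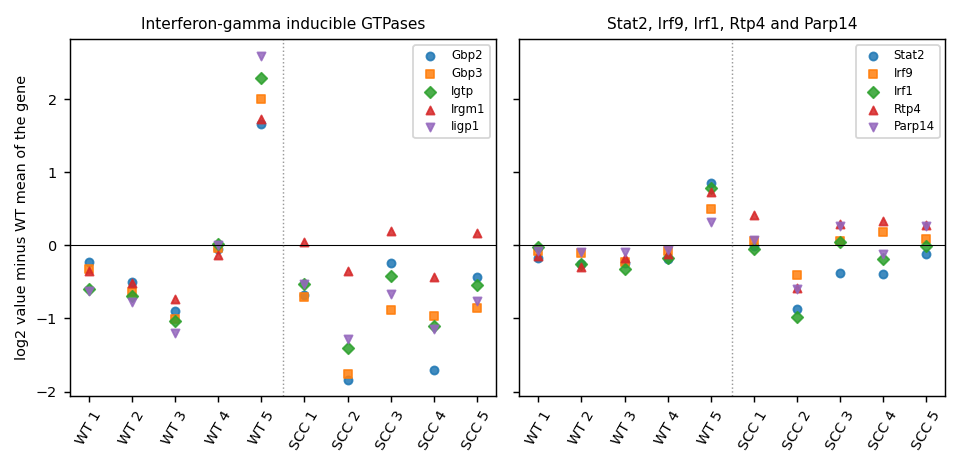
Log2 value minus the WT mean of the gene (y axis) on each of the 10 arrays (x axis) for the 5 interferon-gamma inducible GTPases (left) and for Stat2, Irf9, Irf1, Rtp4 and Parp14 (right), 1 marker a gene. WT 5 is highest in every gene of the left panel, at a median of 2.00, and SCC 2 is lowest in every gene of the right panel.

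Among the other induced genes, Xaf1, a pro-apoptotic factor, and Ifi35 were lower in all 5 SCC than in any WT, by -0.75 (SE 0.11, adjusted p = 0.000421) and -0.32 (SE 0.08, adjusted p = 0.00933). With the slide block Xaf1 was called lower (-1.10, adjusted p = 0.00875) and Ifi35 no longer passed (adjusted p = 0.0578). Rtp4, Parp14 and Ifi44 overlapped between the groups, with differences of 0.15, -0.02 and 0.36 (95% intervals -0.40 to 0.69, -0.41 to 0.37 and -0.21 to 0.94). Without WT 5 the Ifi44 difference was 0.57 and passed (adjusted p = 0.0479). Rtp4 and Parp14 were highest on WT 5 (13.65 and 13.83) and lowest on SCC 2 (12.33 and 12.91). On slide 2 alone all 5 genes of the group were lower than in WT 5.

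Other genes of the pathway were taken from a list of 78, of which 72 had a probe and 67 were tested. Of these, 8 were called higher and 3 lower (16.4%, against 24.9% of all tested genes), and 29 passed the adjusted p alone (43.3%, against 53.9%). Among the 4 ligands tested none was called higher. Ifnb1 was not well above background on 9 of the 10 arrays, Ifna2, Ifna5 and Ifnl3 did not pass, and Ifng fell 2.27-fold (adjusted p = 0.0475). The Ifng call was lost in 6 of the 10 sets with an array left out (adjusted p = 0.0741 without SCC 2 and 0.0971 without WT 5) and under normexp (-0.55). It was also lost with the 75th percentile (adjusted p = 0.156) and the replicate block (adjusted p = 0.076). On slide 2 alone the Ifng difference was -1.40. Among kinases and adaptors, Ikbke, a kinase of IRF3 and IRF7, was higher by 1.79 (adjusted p = 5.31e-05; 1.15 under normexp) and Ticam1, the adaptor TRIF, by 1.07 (adjusted p = 0.000328).

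Of the 6 negative regulators on the list, 3 were called higher and none lower, against 11.6% and 13.4% of all tested genes. Other inhibitors are grouped with the members above, Socs1 and Usp18 not called and Oasl1 called higher, so this count depends on the grouping. Socs3, which inhibits JAK kinases, was higher by 1.37 (adjusted p = 6.98e-05). Enpp1, which degrades the STING ligand cyclic GMP-AMP outside the cell, was at 10.54 to 10.94 in WT and at 12.27, 13.88, 11.96, 12.16 and 12.59 in SCC, highest on SCC 2 (1.77, adjusted p = 0.00152). With the slide block Enpp1 was no longer called (1.81, adjusted p = 0.104). Nlrx1, a mitochondrial NOD-like receptor, was higher by 1.03 (adjusted p = 0.000272), and without WT 5 it fell below the threshold at 1.95-fold.

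Among the further interferon-stimulated genes, Ifitm1, a membrane protein that blocks virus entry, rose 17.3-fold (4.11, SE 0.29, adjusted p = 7.62e-06), highest on SCC 2. Ifit1bl1, a relative of Ifit1, was at 7.89 to 8.24 in WT and at 13.26, 6.92, 13.94, 13.94 and 13.66 in SCC, the pattern of Oasl1 with SCC 2 below WT (4.31, SE 1.23, adjusted p = 0.0162). Without SCC 2 the Ifit1bl1 difference was 5.66 (50.6-fold against 19.8-fold), and with the slide block the call was lost (3.13, adjusted p = 0.394). Sp100, a nuclear body protein, fell by 1.60 (adjusted p = 3.29e-05) and Gbp7 by 1.41 (adjusted p = 0.0175), and without WT 5 Gbp7 lost its call (1.98-fold), while with the slide block it was 8.70-fold lower. The median difference over the 30 tested genes of this list was -0.09. Over all 67 tested other pathway genes it was 0.29, against -0.04 over all tested genes.

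Some marker lists of other cell types differed between the arrays in the same way as these genes, and others did not. Neutrophil markers (S100a8, S100a9, Csf3r and Cxcr2, 3 of 4 called higher) stood at a median of 1.92 to 2.02 above the WT mean on SCC 1, 3, 4 and 5 and at -0.60 on SCC 2, and macrophage markers (1 of 5 called higher) at 0.83 to 1.07 and -0.45. Within the macrophage list Cd68 was called higher (1.95), while Marco was lower (-0.75, adjusted p = 0.0199) and Siglecf differed by 0.19 (adjusted p = 0.721). On these 4 arrays Irf7, Oasl1 and Isg15 were high. By list median, T and NK cell markers (4 of 6 called lower) were low on all 5 SCC arrays, SCC 2 included, at -1.89 to -1.20. Within that list Cd3e (-0.08, adjusted p = 0.556) and Cd4 (0.19, adjusted p = 0.342) did not pass. B cell markers (4 of 4 called lower) lay between -2.07 and -1.52 in SCC. Plasmacytoid dendritic cell markers (3 of 5 called lower) lay between -2.0 and -0.88, endothelial markers (4 of 4 called lower) between -2.92 and -1.39 and pan-leukocyte markers (0 of 3 called) between -1.17 and -0.26. Of the SCC arrays, SCC 2 was nearest to WT in the endothelial, B and plasmacytoid dendritic lists and furthest in the pan-leukocyte list. The squamous list stood at 7.33 on SCC 2 and at 9.33 to 9.88 on the other SCC arrays. Alveolar type 2 markers stood at -0.22 against -0.96 to -0.78, and club markers at -0.09 against -2.6 to -0.84. Ciliated markers stood at -0.24 against -2.21 to 0.51, and alveolar type 1 markers at -1.48 against -1.47 to -0.74. On WT 5 the neutrophil, macrophage and T and NK lists stood at -0.49, -0.31 and -0.02. The ciliated list stood at 0.89 on WT 5, its highest of the 10 arrays, and at -0.73 to 0.36 on WT 1 to 4. In bulk tissue fewer cells of a type and less RNA per cell cannot be told apart, and the part of these cell types in the interferon values was not tested.

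**Figure D4:**
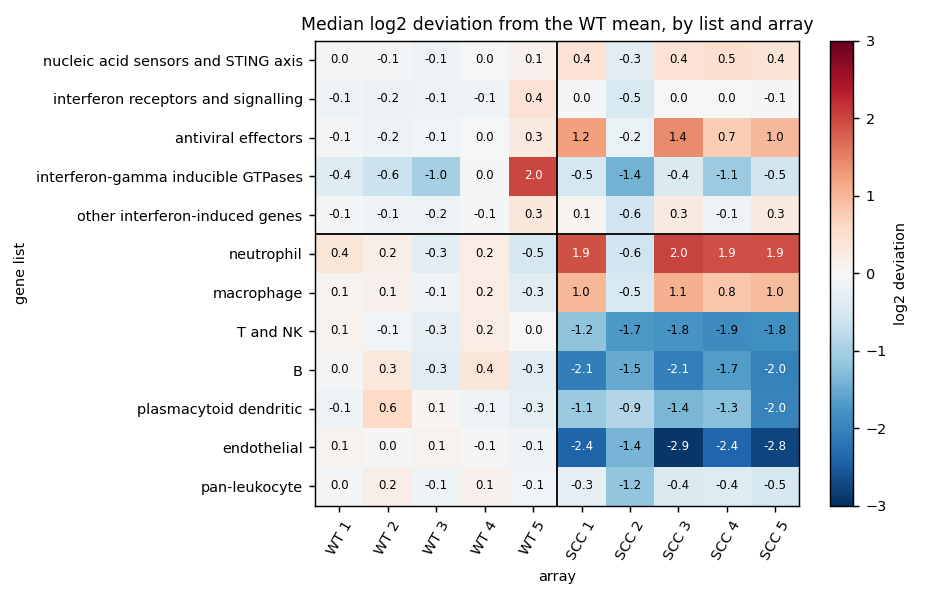
Median log2 deviation from the WT mean of each gene, by list (y axis) and array (x axis), for the 5 groups of members (above the line) and 7 lists of cell type markers (below it). The nucleic acid sensor and STING axis, antiviral effector, neutrophil and macrophage lists are above 0 on SCC 1, 3, 4 and 5 and below 0 on SCC 2. The GTPases are at 2.0 on WT 5.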

How the data were processed

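Whole-lung RNA (WT, n = 5) and lung tumour RNA (SCC, n = 5) were hybridised to one-colour Agilent arrays. The authors' scanner files hold spot intensities and flags, made per the submitters' processing notes with Agilent Feature Extraction 12. The deposited series matrix holds log2 values (median 7.2 in each column) that correlated with the values computed here at r = 0.9999 in each array. Flagged outlier and control spots were left out, spots averaged per probe, processed intensities set to log2 and quantile-normalized. Probes well above background on at least 4 of 5 arrays of a group were tested (30374 of 41174) with limma 3.58.1 in R 4.3.3 and Benjamini-Hochberg adjustment. Symbols came through RefSeq accessions (GRCm38.p6), which matched 28223 probes. The number of arrays limits the precision.

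Members called, those with the largest differences and the main STING and signalling genes were described by array, and of the other pathway genes those called, except 1 not reported here. The members and lists were chosen with earlier results of these data known. Alternatives were another normalization, normexp (offset 50), the series matrix, other filters, slide and replicate blocks, the methods' t-test, other probes and arrays left out. Because the files carry no mean spot signal, normexp used the median spot and background intensities. The limma fit was tested on simulated data.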

Additional observations from a re-analysis of the deposited data

Results flagged for a closer look

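In 18 of 76 groups, 1 array lay apart from its group by more than 0.71 of the whole range of the group (a higher limit was used for the 4 WT values of Oasl2). Chance gives this in about 1 in 20 groups, and the members share their arrays, so the groups are not independent.

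SCC 2 was the low array in 11 of them. The gap to the nearest SCC, as a share of the range, was 0.873 for Ifih1, 0.812 for Zbp1, 0.781 for Irf9, 0.776 for Irf7, 0.777 for Irf1, 0.717 for Isg15, 0.777 for Oas1a, 0.859 for Oasl1, 0.828 for Oasl2, 0.763 for Gbp3 and 0.86 for Rtp4. The squamous, neutrophil and macrophage marker lists were also lowest on SCC 2 among the SCC arrays.

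WT 5 was the high array in 6. The gap to the nearest WT was 0.924 for Stat2, 0.804 for Irf9, 0.727 for Irf1, 0.756 for Irgm1, 0.83 for Rtp4 and 0.914 for Parp14. WT 5 was also the only WT array on slide 2, so slide and array cannot be told apart within the WT group.

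Cmpk2 was low on SCC 5, with a gap of 0.82. SCC 5 was also the array with the most probes well above background, 90.2%.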

How the results depend on the processing

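Of 835 values for single members under the alternatives, 767 kept their direction and their side of the threshold, 31 no longer passed, 17 newly passed and 20 turned direction, and of 242 for the other pathway genes called, 225 kept both and 17 no longer passed. All turned values belonged to members that did not pass in the 10-array fit. Irf9 turned to 0.0043 with normexp, 0.0060 with slide as a random block, 0.10 with SCC 2 and 5 left out and 0.46 over the mean of its probes, and Irf1 to 0.10 over its probes. Parp14 turned to 0.050 with the 75th percentile, 0.072 without SCC 2 and 5 and 0.027 over its probes. With 1 array left out, Irf9 ran from -0.061 to 0.12, Parp14 from -0.095 to 0.12 and Irgm1 from -0.26 to 0.36. With slide as a fixed block Dhx58 turned to -0.15, Zbp1 to -0.55, Oasl2 to -0.62, Ifi44 to -0.68 and Rtp4 to -0.69.

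With slide as a fixed block 2989 probes were called, against 6954, with 2 members higher and 10 lower, 7 other pathway genes lower and a member median of -0.53. Calls lost were those of Irf7, Isg15, Oas2, Oas3 and Oasl1, and calls gained those of Stat2, Ifit3, Xaf1 and the 5 GTPases. Slide as a random block gave 6988 probes and kept all 9 member calls, at a within-slide correlation of -0.0174. Normexp gave 3969 probes and 0 members lower, with Ifit2, Oas3 and Cmpk2 under 2-fold. It called 6 other pathway genes higher, against 8. The adjusted p alone gave 14878 probes, 8 members lower and 19 and 10 other pathway genes higher and lower. The methods' t-test, the same for 2 groups as their one-way ANOVA, at an unadjusted p of 0.01 left 1 other pathway gene lower, and SCC 2 and 5 left out gave 11 members higher. With each array left out in turn, 7 to 11 members were called higher (11 without SCC 2), 2 lower, 1 to 4 other pathway genes lower (1 without WT 5), 7 to 9 higher and 6385 to 8135 probes, and the member median ran from -0.11 to 0.09. Same-numbered WT and SCC arrays correlated at -0.099 to 0.0093 in their deviations, so the numbers were not taken as pairs, and the replicate block called 7 members higher and 2 lower, as without it. The number of arrays, 5 a group, limits these values.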
